A study of Mus musculus with 2 samples.

Results

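The 9 genes described here encode cathepsins, the protein-degrading enzymes of the lysosome: Ctsa, Ctsb, Ctsc, Ctsd, Ctsh, Ctsk, Ctsl, Ctss and Ctsz. They were chosen by symbol, 9 of the 31053 genes in the deposited tables, and each was read from its own row in 2 spatial transcriptome sections of mouse calvarial bone with a surgical defect. The Blank section is a defect left without collagen/nHA material, and in the Col_nHA section the defect had received it. Both groups share the defect, the tissue, the freezing in embedding compound and the harvest at day 7. The labels give no strain, age, sex or genotype, and they do not say how many animals stand behind a section. Each group holds 1 section, so every ratio compares these 2 libraries and no test between the treatments is possible.

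A spatial section is read on an array of barcoded spots, and a spot can hold several cells of different types or part of one. A unique molecular identifier (UMI) marks 1 captured RNA molecule. Barcodes with at least 3667 UMIs in Blank and 4690 in Col_nHA were kept as spots, which gave 2249 spots with 30705849 UMIs in Blank and 2471 spots with 40202268 UMIs in Col_nHA. The median spot held 9733 UMIs in Blank and 13815 in Col_nHA. Both tables carry the same 4992 barcodes, the barcode set of the array, so a shared barcode does not mark shared cells. The sections held different neighbouring tissues: choroid plexus genes, led by Ttr and Enpp2, summed to 12060 CPM (counts scaled to 1e+06 UMIs of the section's spots) in Blank and 29.3 CPM in Col_nHA, and skeletal muscle genes, led by Acta1 and Ckm, to 6060.1 and 14312 CPM. Spots with over 2% of their UMIs in genes of muscle, skin, fat, nerve, brain or choroid plexus made up 29.3% of the Blank spots and 14.3% of the Col_nHA spots, and values without them are given where they matter. Bone was present in both sections, but its genes did not share a direction. The osteoblast gene Bglap stood at 578 CPM in Blank against 233 in Col_nHA, and Ibsp at 88.2 against 174 CPM. Of 9 osteoblast and osteocyte markers with at least 10 CPM in a section, 2 stood higher in Col_nHA and 7 lower. In these sums, fewer cells of a type and less RNA per cell cannot be told apart.

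Cathepsins are made as inactive precursors, sorted to the lysosome and activated there by acid, which the vacuolar proton pump supplies. Most members here are cysteine proteases of the papain family (Ctsb, Ctsc, Ctsh, Ctsk, Ctsl, Ctss and Ctsz), Ctsd is an aspartic protease and Ctsa a serine carboxypeptidase that also protects other lysosomal enzymes. In bone, cathepsin K is secreted by osteoclasts onto the bone surface, where it cuts type I collagen, and macrophages that clear tissue debris are rich in cathepsins B, D, L and S.

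RefSeq promoter windows (build GRCm38.p6, 250 bases before to 50 after a transcript's start) were found for 7 of the 9 members, in 8 windows; Ctsb and Ctsh had no entry. They were searched on both strands for 4 short motifs: CACGTG, the core bound by the MiT/TFE family that drives lysosomal genes, TCATGTG, bound by its member MITF, AGGAAGT, bound by the myeloid factor PU.1 and other ETS proteins, and TGANTCA, bound by AP-1. The windows of the members whose levels part most in the results are shown, with matches in capitals; no 2 matches overlap. Ctsd is printed as a window with a pair of CACGTG matches before the start, Ctsl and Ctss as the members that differed most between the sections, and Ctsk as the member whose distribution over spots stood apart. They lie at chr7:142387778-142388077 on the minus strand (Ctsd), chr13:64370471-64370770 on the minus strand (Ctsl), chr3:95526536-95526835 on the plus strand (Ctss) and chr3:95498960-95499259 on the plus strand (Ctsk), each printed in the direction of its gene. The Ctsl window lies within the span that the gene table gives for that gene.
Ctsd: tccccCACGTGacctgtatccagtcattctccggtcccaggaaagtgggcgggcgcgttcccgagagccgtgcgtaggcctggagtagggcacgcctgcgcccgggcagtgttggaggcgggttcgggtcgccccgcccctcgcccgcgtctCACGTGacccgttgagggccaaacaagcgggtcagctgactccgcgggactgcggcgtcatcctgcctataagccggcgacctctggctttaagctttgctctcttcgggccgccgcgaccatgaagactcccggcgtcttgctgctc
Ctsl: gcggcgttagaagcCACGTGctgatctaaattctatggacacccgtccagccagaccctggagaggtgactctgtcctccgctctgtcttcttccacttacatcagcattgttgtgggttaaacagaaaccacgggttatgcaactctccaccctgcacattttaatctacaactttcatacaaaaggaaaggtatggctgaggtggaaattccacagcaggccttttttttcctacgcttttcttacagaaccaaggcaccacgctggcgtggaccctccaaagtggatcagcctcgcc
Ctss: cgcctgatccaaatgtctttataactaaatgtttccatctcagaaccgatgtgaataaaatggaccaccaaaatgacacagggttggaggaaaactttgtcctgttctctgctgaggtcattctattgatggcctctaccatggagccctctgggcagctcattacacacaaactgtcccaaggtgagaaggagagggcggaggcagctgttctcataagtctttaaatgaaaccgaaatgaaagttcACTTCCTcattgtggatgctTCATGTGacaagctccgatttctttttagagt
Ctsk: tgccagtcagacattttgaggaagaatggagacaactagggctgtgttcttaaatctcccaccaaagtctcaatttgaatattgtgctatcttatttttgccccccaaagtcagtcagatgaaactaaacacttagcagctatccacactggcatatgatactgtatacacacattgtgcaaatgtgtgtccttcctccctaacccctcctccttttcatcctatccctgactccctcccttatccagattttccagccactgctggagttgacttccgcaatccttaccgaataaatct

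CACGTG was found in Ctsd at 245 and 98 bases before the start, in Ctsl at 236 bases before it, and in a Ctsa window at 12 bases before and 5 bases after it. That is 3 of 7 members, against 8.09% of the 27025 genes in the promoter table. The motif was in 7.17% of its 32544 windows. The Ctsa window with the motif lies within the span of its gene, as the Ctsl window does. The other Ctsa window, at the outer end of the gene, held none of the 4 motifs. TCATGTG was found in Ctss and Ctsa, and in 3.79% of all windows. In Ctss it began 18 bases after the start, and in Ctsa 21 bases after it. AGGAAGT was found in Ctss, on the opposite strand and printed as its complement, from 2 bases before the start, and in Ctsc at 151 bases before it; 9.27% of all windows hold it. The Ctsk window held none of the 4 motifs, and TGANTCA, in 7.79% of all windows, was in no member's window. Ctsl and Ctss, whose levels differed most between the sections, shared none of these motifs in their windows. These matches describe letters only, and nothing here measured binding.

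Cathepsin UMIs made up 0.852% of all UMIs in the Blank spots and 1.29% in the Col_nHA spots. All 9 genes stood higher in Col_nHA. Ctss and Ctsl stood apart at about 2.5-fold, and the other members ranged without a clear gap from 1.10 for Ctsh to 1.49 for Ctsz. The summed level was 8524 CPM in Blank against 12916 in Col_nHA, a ratio of 1.52 (95% interval 1.51 to 1.52; exact intervals here and below cover counting error only, not differences between animals or sections). The median log2 ratio of the members was 0.52, beside 0.02 for the 9855 genes with at least 10 CPM in a section, 52.1% of which stood above a ratio of 1. Of those genes, 1.83% stood at least 2-fold higher in Col_nHA and 3.4% at least 2-fold lower; among the members 2 of 9 were at least 2-fold higher and none lower. The members are abundant genes, and among the 771 genes with at least 200 CPM the shares were 3.5% higher and 4.41% lower, 63.0% stood above a ratio of 1 and the median log2 ratio was 0.10.

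**Figure D1:**
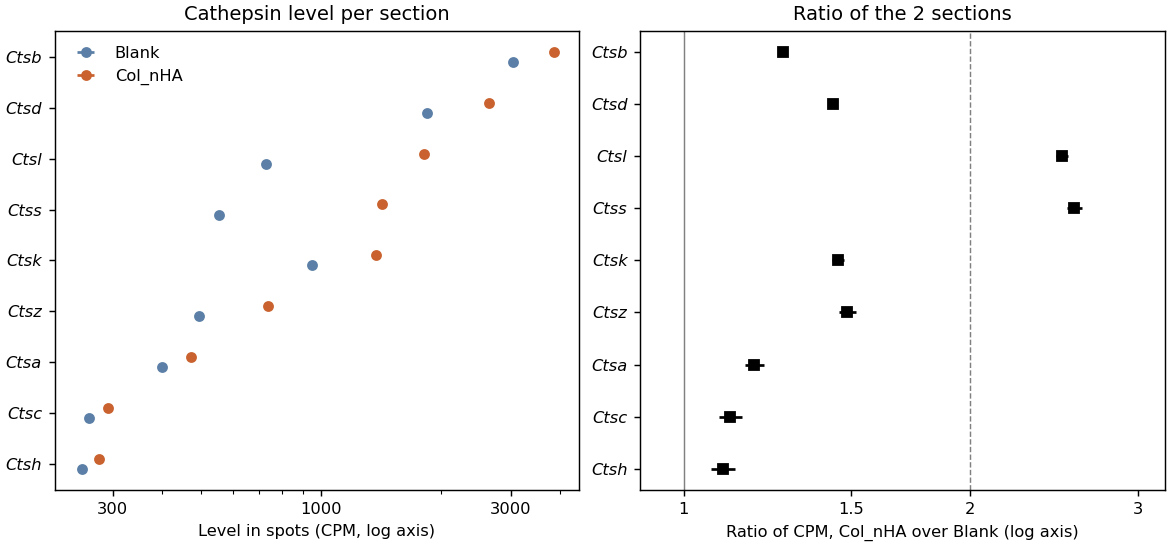
Left, the level of each cathepsin gene in the Blank (blue) and Col_nHA (orange) section in CPM on a log axis; right, the ratio of Col_nHA over Blank on a log axis, with lines at 1 and 2. Bars are exact 95% counting intervals and are mostly narrower than the symbols. All 9 ratios lie above 1, from 1.10 for Ctsh to 2.57 for Ctss, and Ctss and Ctsl alone lie above 2.

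Ctss encodes cathepsin S, an elastin-cutting cysteine protease of antigen-presenting cells that stays active at neutral pH. It stood at 554 CPM in Blank (interval 546 to 563) against 1426 in Col_nHA (1415 to 1438), a ratio of 2.57 (2.53 to 2.62). Ctsl, cathepsin L, a broad endopeptidase of the lysosome, stood at 729 CPM (720 to 739) and 1820.2 CPM (1807 to 1833), a ratio of 2.5 (2.46 to 2.53). Both genes moved up the order of all genes by UMIs, Ctsl from rank 184 to 64 and Ctss from rank 236 to 95. Their share of all cathepsin UMIs grew, from 8.56% to 14.1% for Ctsl and from 6.5% to 11% for Ctss, while no other member gained share.

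Ctsb, cathepsin B, the most abundant member and both an endopeptidase and a dipeptidase, stood at 3039 CPM in Blank against 3864 in Col_nHA, a ratio of 1.27 (1.26 to 1.28). It ranked 24 of all genes in Blank and 20 in Col_nHA, and its share of cathepsin UMIs was 35.7% and 29.9%. Ctsd, the aspartic cathepsin D, stood at 1848 and 2651 CPM, a ratio of 1.43 (1.42 to 1.45). Ctsb and Ctsd together gave most cathepsin UMIs of either section.

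Ctsk, cathepsin K, the collagen-cutting enzyme of osteoclasts, stood at 948 CPM (937 to 959) in Blank and 1377 CPM (1366 to 1389) in Col_nHA, a ratio of 1.45 (1.43 to 1.47). It was the third member by level in Blank and the fifth in Col_nHA, below Ctsl and Ctss. Ctsz, cathepsin Z, a carboxypeptidase, stood at 495 and 736 CPM, a ratio of 1.49 (1.46 to 1.52). UMIs were not divided by gene length, so an order of members is an order of captured molecules. Ctsk and Ctss are neighbours on chromosome 3, Ctsk at chr3:95499210-95509387 and Ctss at chr3:95526786-95556405, with 17398 bases and 1 noncoding RefSeq gene, Gm40096, between them. The neighbours differed in ratio and, as the region values show, in where they were high.

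The 3 members with the smallest differences were also among the least abundant. Ctsa, the carboxypeptidase, stood at 398 and 473 CPM, a ratio of 1.19 (1.16 to 1.21). Ctsc, cathepsin C or dipeptidyl peptidase I, which activates granule serine proteases of immune cells, stood at 261 and 292 CPM, a ratio of 1.12 (1.09 to 1.15). Ctsh, cathepsin H, an aminopeptidase, stood at 252 and 277 CPM, a ratio of 1.10 (1.07 to 1.13). With the tissue-rich spots left out, the ratios of all 9 members again stood above 1, from 1.10 for Ctsh to 2.60 for Ctsl.

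By position in GRCm38.p6, the remaining members are spread over the genome. Ctsa lies at chr2:164832872-164841032 and Ctsz on the same chromosome at chr2:174427494-174439039. Ctsc lies at chr7:88278024-88315861 and Ctsd at chr7:142375910-142387827. Ctsb lies at chr14:63122462-63145923, Ctsh at chr9:90054267-90076095 and Ctsl at chr13:64361890-64370772.

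Cathepsin UMIs were found across most of each section, in shares of spots that differed by member. After every spot was thinned to 2000 UMIs, so that depth was equal, Ctsb was seen in 98.8% of Blank spots (98.2 to 99.2) and 96.6% of Col_nHA spots (95.8 to 97.2). Ctss was seen in 55.6% of Blank spots (53.5 to 57.7) and 74.6% of Col_nHA spots (72.9 to 76.3), and Ctsl in 71.5% (69.6 to 73.4) and 82.8% (81.3 to 84.3). The same share of spots, 75.6% in either section, held a Ctsk UMI, although the Ctsk level in CPM was higher in Col_nHA. Without thinning these shares were 91.2% and 95.9% for Ctss, 97.2% and 99.2% for Ctsl, and 98.0% in both sections for Ctsk.

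The variance of the thinned counts over their mean, which is 1 for counts spread at random, gives the unevenness. For Ctsk it was 3.10 in Blank and 5.0 in Col_nHA, the highest of the members in each section. For Ctsl it went from 1.82 in Blank to 4.69 in Col_nHA, for Ctss from 1.72 to 4.0, for Ctsb from 2.17 to 4.33 and for Ctsd from 2.16 to 4.23. For Ctsz it was 1.18 and 1.56, and for Ctsa, Ctsc and Ctsh it lay between 1.12 and 1.26 in both sections. The last 3 genes had few UMIs per spot after thinning, which draws this ratio towards 1, so it ranks no member of low level against an abundant one.

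Single spots show the same range. The highest Ctsk spot held 28564 CPM in Blank against 26058 in Col_nHA, with medians over spots of 732 and 808 CPM. The highest Ctsl spot held 8950 CPM in Blank against 20304 in Col_nHA, with medians of 622 and 1118 CPM. For Ctss the highest spots held 6658 and 11800 CPM, with medians of 415 and 834 CPM. The Ctsk extremes were thus alike in the sections while its median differed little, and for Ctsl and Ctss both the median and the extreme were higher in Col_nHA.

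Such shares can be set beside those of barcodes that were not kept as spots. No position was used, so it is not known whether those barcodes lay under tissue. Spread of RNA over the array was not tested. Barcodes below the UMI minimum, thinned with the spots to 500 UMIs, held a Ctsk UMI in 38.6% of cases in Blank against 31.3% of spots, and in 46.5% against 38.6% in Col_nHA. For Ctss the values were 19.4% below the minimum and 21.4% of spots in Blank, and 44.4% and 40.0% in Col_nHA. Barcodes below the minimum held a median of 1320.0 UMIs in Blank and 1858 in Col_nHA. For Ctsb the shares were 68.0% below the minimum and 73.5% of spots in Blank, and 77.4% and 74.2% in Col_nHA. A single UMI was therefore not read as expression in its spot, and the levels compared next are summed over many spots.

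Spots of both sections were clustered together by their expression, without the cathepsin genes, which gave 16 regions; a region is called by its number and up to 3 leading genes, not by a cell type. Regions split almost wholly by section: 7 had at least 50 Blank spots, 10 had at least 50 Col_nHA spots, and only region 9 had at least 50 of each. A region found in 1 section may be a property of that library.

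**Figure D2:**
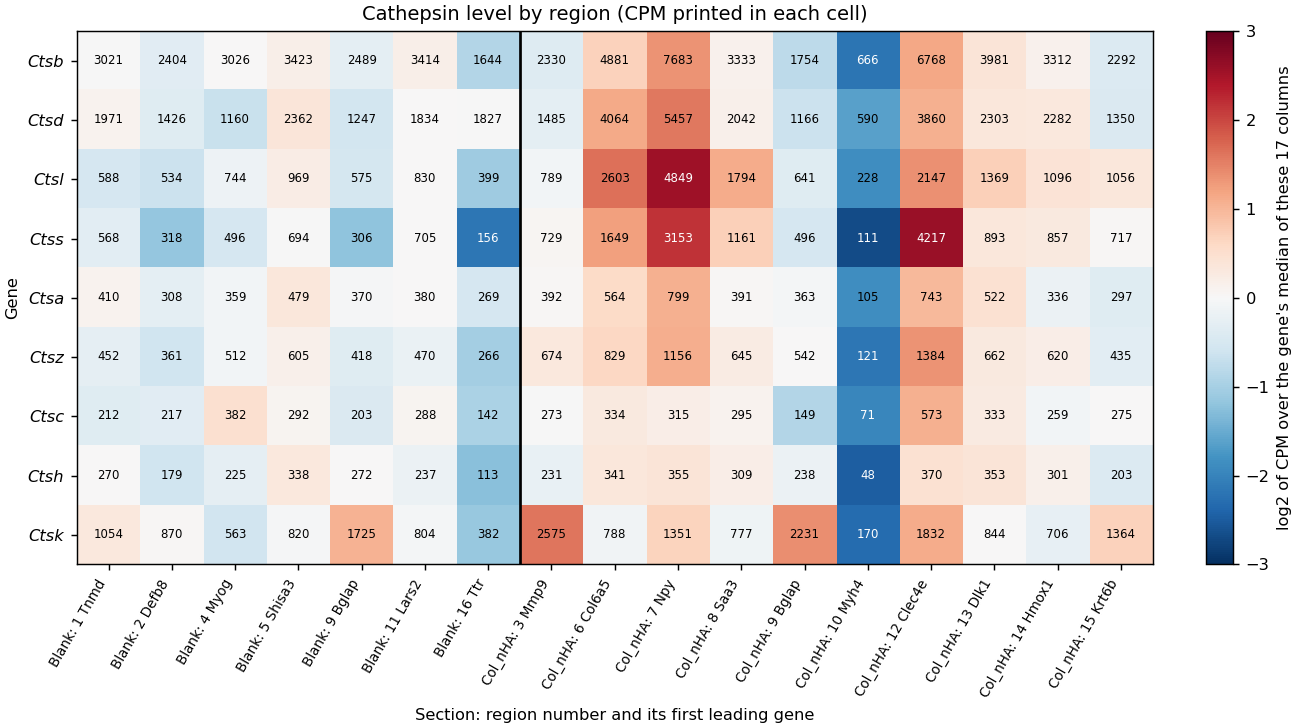
Level of each cathepsin gene (rows) in each region with at least 50 spots of that section (columns, with the region's number and first leading gene, Blank left of the black line and Col_nHA right), as CPM printed in the cells; colour is the log2 of the CPM over the gene's median of the 17 columns. Ctss and Ctsl are deepest red in Col_nHA regions 12 and 7, Ctsk is high in region 3, in region 9 of both sections and in region 12, and region 10 is lowest for every gene.

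In Col_nHA, 2 regions carried the highest levels of most members. Region 7 (Npy, Spp1, Gpnmb; 298 Col_nHA spots) had the highest Ctsl, 4849 CPM (4791 to 4908), Ctsb, 7683 CPM (7610 to 7757), Ctsd, 5457 CPM, and Ctsa, 799 CPM. Region 12 (Clec4e, Ly6c2, Cxcl10; 185 Col_nHA spots) had the highest Ctss, 4217 CPM (4138 to 4296), Ctsz, 1384 CPM, and Ctsc, 573 CPM. Ctsh stood at 370.0 CPM there (347 to 394), not beyond counting error of its 355 CPM in region 7 (340 to 372). Ctss in region 7 was 3153 CPM (3106 to 3200) and Ctsl in region 12 was 2147 CPM (2091 to 2203), so that Ctsl led in region 7 and Ctss in region 12. All cathepsins together reached 25119 CPM in region 7 against 21894 in region 12.

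The make-up of the cathepsin pool differed between these regions. Ctss gave 19.3% of cathepsin UMIs in region 12 and 12.6% in region 7, and Ctsl gave 9.80% and 19.3%. Macrophage and monocyte markers, led by Lyz2 and C1qb, took 1.78% of UMIs in region 7 and 1.59% in region 12, the highest shares of the 16 regions. Lipid-associated macrophage markers, led by Spp1 and Apoe, took 4.42% and 2.95%. The part of these cell types in the cathepsin levels was not tested.

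Region 10 (Myh4, Mettl21c, Pvalb), with 15.1% of its UMIs in skeletal muscle genes, had the lowest level of every member in Col_nHA. Ctss stood there at 111 CPM (100 to 122), Ctsl at 228 CPM and Ctsk at 170 CPM (156 to 184). From the lowest to the highest Col_nHA region the level differed 38.1-fold for Ctss, 21.3-fold for Ctsl, 15.2-fold for Ctsk, 11.5-fold for Ctsb and for Ctsz, 9.25-fold for Ctsd, 8.12-fold for Ctsc, 7.64-fold for Ctsh and 7.61-fold for Ctsa. Members with few UMIs per spot thus also differed several-fold between regions.

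Blank regions with at least 50 spots spanned less. Region 5 (led by Shisa3; 354 Blank spots) had the highest Ctsb, 3423 CPM, Ctsd, 2362 CPM, Ctsl, 969 CPM, Ctsa, 479 CPM, Ctsz, 605 CPM, and Ctsh, 338 CPM; for Ctsb the 3414 CPM of region 11 did not differ from it beyond counting error. Ctss was highest in region 11 (Lars2, Clec3b, Malat1) at 705 CPM (671 to 740), beside 694 CPM (671 to 718) in region 5; these levels do not differ beyond counting error. Ctsc was highest in region 4 (Myog, Mybph, Myh3), at 382 CPM. The span from the lowest to the highest Blank region was between 1.78-fold for Ctsa and 4.52-fold for Ctss, below that of Col_nHA for each member. These Blank values depend on which spots form a region. The 45 Blank spots in region 12 had Ctsb at 5792 CPM, Ctsl at 1982 CPM and Ctss at 1456 CPM, and the 7 Blank spots in region 3 had Ctsk at 7163 CPM. With a coarser clustering the span over Blank regions was 6.10-fold for Ctss, 3.81-fold for Ctsl and 2.61-fold for Ctsb, and with a finer one 9.57-fold, 2.96-fold and 3.30-fold, with 10.2-fold for Ctsk. The lowest Blank region for all members but Ctsd was region 16 (Ttr, Kl, Enpp2), with 21.1% of its UMIs in choroid plexus genes.

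Ctsk followed another order. In Col_nHA it was highest in region 3 (Mmp9, Cnn1, Acp5; 395 Col_nHA spots) at 2575 CPM (2543 to 2608) and next in region 9 (Bglap, Bglap2, Ifitm5; 94 Col_nHA spots) at 2231 CPM (2153 to 2311). In Blank it was highest in region 9 (167 Blank spots) at 1725 CPM (1666 to 1785) and next in region 1 (Tnmd, Sfrp2, Capn6) at 1054 CPM. Ctsk gave 27.2% of cathepsin UMIs in region 3, 29.4% in Col_nHA region 9 and 22.7% in Blank region 9, against 4.91% in region 6 (Col6a5, Penk, Sfrp4) and 5.38% in region 7. In regions 3 and 9 the other abundant members were not high: Ctsb stood at 2330 CPM in region 3, below its 3322 CPM median over Col_nHA regions, and at 1754 CPM in Col_nHA region 9. Osteoclast markers, led by Acp5 and Mmp9, took 0.473% of UMIs in region 3 and 0.289% in region 9, the highest shares of the 16 regions, and osteoblast and osteocyte markers took 9.97% in region 9. Ctsk was also high in region 12, at 1832 CPM, where Ctss peaked.

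Region 9 allowed a comparison of the sections within a region. There 3.69% of 9513 genes stood at least 2-fold higher in Col_nHA and 4.96% at least 2-fold lower; no member passed 2-fold in either direction, and 4 of 9 stood above 1. Ctss stood at 306 CPM in Blank against 496 in Col_nHA, a ratio of 1.62 (1.45 to 1.81). Ctsk had a ratio of 1.29 (1.23 to 1.36), Ctsz 1.30 (1.17 to 1.44) and Ctsl 1.12 (1.02 to 1.22). Ctsb was lower in Col_nHA there, at 2489 and 1754 CPM, a ratio of 0.705 (0.671 to 0.740), and Ctsc had a ratio of 0.735 (0.617 to 0.873). Ctsd had a ratio of 0.935 (0.877 to 0.997). For Ctsa, at 0.981 (0.873 to 1.10), and Ctsh, at 0.874 (0.759 to 1.01), the interval held 1. In the region led by the same genes in a coarser clustering, Ctsb stood at 0.828 (0.789 to 0.867) and Ctsc at 0.910 (0.773 to 1.07). Ctsk stood there at 1.10 (1.05 to 1.16) and Ctss at 1.73 (1.54 to 1.94). The lower Ctsc and the size of the Ctsk ratio thus depended on the clustering. The median log2 ratio of the members in region 9 was -0.03, beside 0.05 for all genes there. Within bone-gene spots the members thus did not share the direction that they had over the whole sections.

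With a coarser clustering into 10 regions, a region led by Gpnmb, Spp1 and Itgax held 53 Blank and 583 Col_nHA spots. Blank had few such spots, yet its levels in them were high: Ctsb stood at 6191 CPM in Blank (6048 to 6335) against 6320.2 in Col_nHA (6273 to 6367), a ratio of 1.02 (0.996 to 1.05). Ctsk had a ratio of 1.07 (1.01 to 1.14) there, Ctsd one of 1.11 (1.08 to 1.15) and Ctsa one of 0.960 (0.892 to 1.03). Ctsl and Ctss had the largest ratios of the members there, Ctsl at 2090.3 and 3636 CPM, a ratio of 1.74 (1.67 to 1.81), and Ctss at 1727 and 2354 CPM, a ratio of 1.36 (1.30 to 1.43). Ctsz, at 0.870 (0.822 to 0.921), and Ctsc, at 0.859 (0.778 to 0.952), were lower in the Col_nHA spots of that region. Another coarse region (Shisa3, Penk, Cldn11) held 393 Blank and 175 Col_nHA spots. Its Ctsk ratio was 0.817 (0.774 to 0.861), beside 1.38 for Ctsl and 1.24 for Ctss. With a finer clustering, a region led by Ptgdr, Penk and Shisa3 held 185 Blank and 159 Col_nHA spots. Its Ctsk ratio was 0.836 (0.782 to 0.893), beside 1.70 for Ctsl and 1.55 for Ctss. The direction of the Ctsk ratio thus differed between shared regions.

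Members differed in how they varied together from spot to spot. Correlations were taken over the spots of 1 section at equal depth and are descriptions, since spots share a library. In Col_nHA (2471 spots) the 4 genes Ctsb, Ctsd, Ctsl and Ctss formed a tight group, with Spearman rho of 0.64 for Ctsb with Ctss and with Ctsd, 0.62 for Ctsb with Ctsl, 0.58 for Ctsl with Ctss, 0.56 for Ctsd with Ctsl and 0.55 for Ctsd with Ctss. In Blank (2249 spots) the same pairs had rho between 0.13 and 0.25. Ctsk had rho between 0.03 and 0.19 with the other members in Col_nHA, and between -0.06 and 0.06 in Blank. Counts of Ctsa, Ctsc and Ctsh are sparse after thinning, which limits their rho. Ctss and Ctsl were also sparser in Blank, which can limit their rho there. Their means were 1.01 and 1.47 thinned UMIs per spot, against 2.70 and 3.43 in Col_nHA. Without thinning, the pairs among Ctsb, Ctsd, Ctsl and Ctss had rho between 0.22 and 0.49 in Blank. In Col_nHA they then had rho between 0.76 and 0.85.

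**Figure D3:**
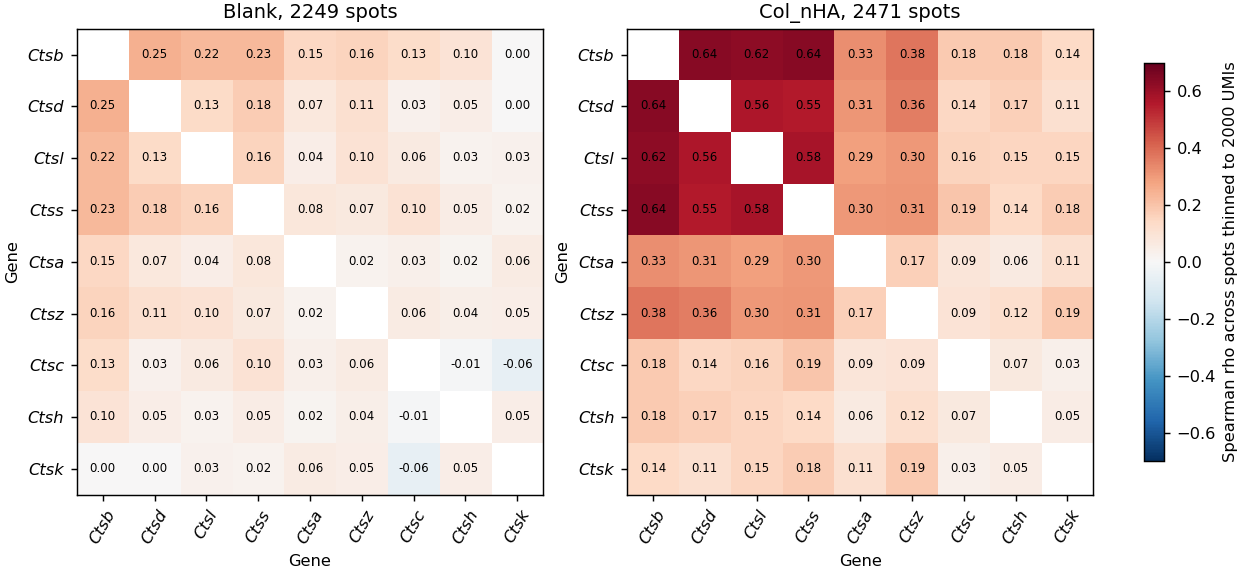
Spearman rho between pairs of cathepsin genes over the spots of Blank (left, 2249 spots) and Col_nHA (right, 2471 spots), each spot thinned to 2000 UMIs; colour and printed value give rho. The block of Ctsb, Ctsd, Ctsl and Ctss is between 0.55 and 0.64 in Col_nHA and between 0.13 and 0.25 in Blank, and the Ctsk row is pale in both.

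Over all 36 pairs the median rho was 0.06 in Blank and 0.18 in Col_nHA. With the tissue-rich spots left out, the Col_nHA median was 0.10, and the Ctsb and Ctss pair had rho of 0.59. In those spots Ctsk had rho of -0.03 with Ctsb and with Ctsd, against 0.14 and 0.11 in all spots: a weak relation that did not keep its sign.

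The genes whose pattern was most like a member, by the mean rho over the sections among 2903 genes with at least 50 CPM in both, parted Ctsk from the others. For Ctsk they were Acp5 (0.32), the acid phosphatase of osteoclasts, Mmp9 (0.32), a gelatinase, the collagen I genes Col1a1 (0.23) and Col1a2 (0.22), and Gpx3 (0.21), a secreted peroxidase. For Ctsb they were Lyz2 (0.54), the lysozyme of macrophages, Psap (0.49), a lysosomal sorting partner, Ftl1 (0.45), a ferritin chain, the member Ctsd (0.44) and Apoe (0.44), a lipid carrier. For Ctsd they were Lyz2 (0.52), Ftl1 (0.47), the member Ctsb (0.44), Psap (0.44) and Spp1 (0.41), osteopontin. For Ctss they were Lyz2 (0.51), the member Ctsb (0.43), Spp1 (0.43), Ftl1 (0.40) and Psap (0.39). For Ctsl the member Ctsb came first (0.42), ahead of Spp1 (0.41), Lyz2 (0.39), the member Ctss (0.37) and Psap (0.36). Lyz2 and Ctsb thus appeared among the nearest genes of every member but Ctsk, Ctsb itself aside; for Ctsa and Ctsz they were the first pair, at 0.24 each and at 0.29 and 0.27, and for Ctsc and Ctsh the highest value was 0.16.

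Spots were then ranked, within each section, by the share of their UMIs in macrophage and monocyte markers and divided into 10 bins of equal size, with no cathepsin gene in the list. Ctss stood higher at each of the 9 steps in both sections, from 142 CPM in the lowest bin to 1262 CPM in the highest in Blank, 8.91-fold, and from 97.5 to 4362 CPM in Col_nHA, 44.7-fold. Ctsl was 3.0-fold higher in the highest bin than in the lowest in Blank and 19.0-fold in Col_nHA, Ctsb 3.76-fold and 11.6-fold, and Ctsd 2.59-fold and 11.3-fold. Ctsk showed no such gradient in Blank, at 746 CPM in the lowest bin and 841 CPM in the highest; in Col_nHA it was low in the lowest bin, 309 CPM, and between 1159 and 1865 CPM in the other 9.

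Ranked by osteoclast markers, the pattern was the other way round. Ctsk stayed between 590 and 940 CPM over the first 9 bins of Blank and reached 2398 CPM in the highest. In Col_nHA it stood higher at all 9 steps, from 258 to 4960.2 CPM, 19.3-fold. Ctsb differed 1.40-fold between the lowest and highest bins in Blank and 2.89-fold in Col_nHA, and Ctss 2.10-fold and 6.28-fold. Ranked by osteoblast and osteocyte markers, Ctsk was 2.71-fold higher in the highest bin in Blank and 2.97-fold in Col_nHA, while the highest bin over the lowest was 0.57 and 0.47 for Ctss and 0.65 and 0.48 for Ctsl.

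**Figure D4:**
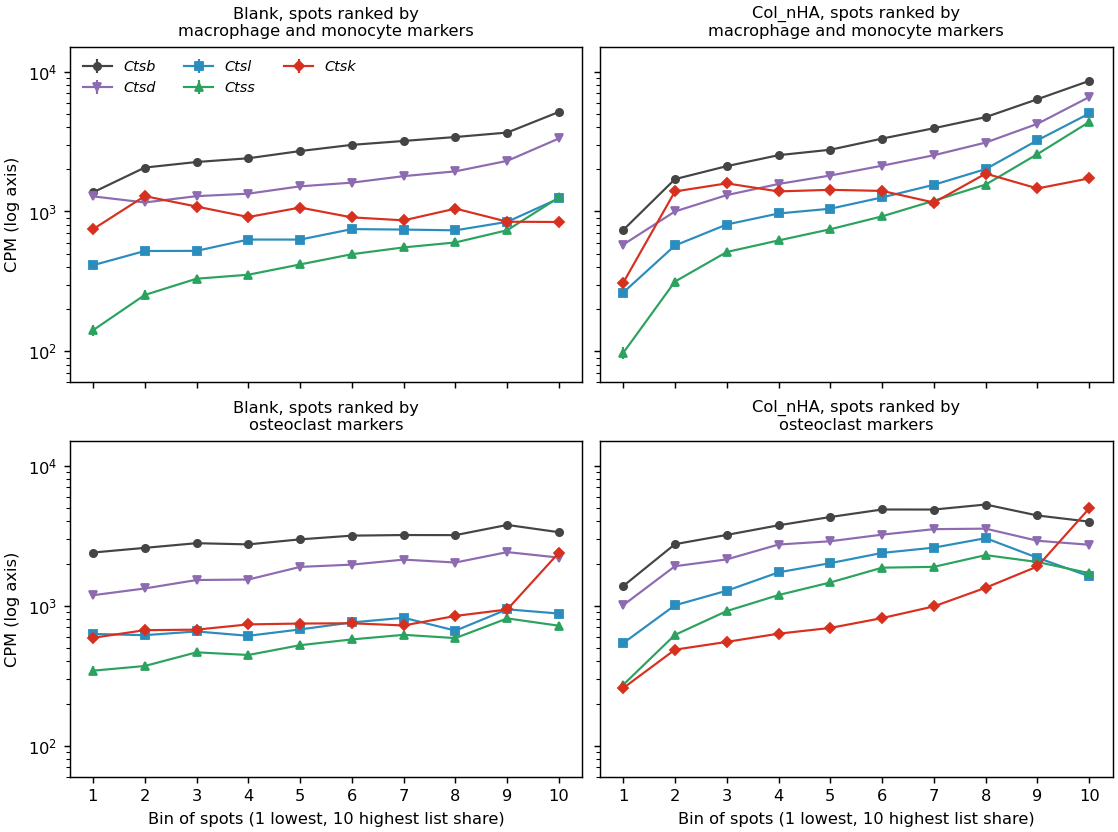
Level in CPM (log axis) of Ctsb, Ctsd, Ctsl, Ctss and Ctsk in 10 bins of spots ordered by their share of macrophage and monocyte markers (top) or of osteoclast markers (bottom), in Blank (left) and Col_nHA (right); bars are exact 95% counting intervals. Ctss, Ctsl, Ctsb and Ctsd climb along the macrophage order, more steeply in Col_nHA, and Ctsk climbs along the osteoclast order, to 2398 CPM in Blank against 4960.2 in Col_nHA.

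To set the sections side by side at equal marker shares, spots of both were binned together by the pooled marker share, and ratios were taken within bins with at least 50 spots of each section. At equal macrophage marker share, Ctsb had a median ratio of 0.98 over 10 bins, above 1 in 4 of them, against 1.27 over the whole sections, and Ctsa one of 0.99. Ctss stood higher in Col_nHA in 10 of 10 bins, with a median ratio of 1.64 (range 1.14 to 2.19), and Ctsl in 9 of 10, with a median of 1.55 (0.825 to 2.93). Both were below their whole-section ratios of 2.57 and 2.5. Ctsz had a median of 1.33 and stood higher in 9 of 10 bins, and Ctsd a median of 1.14. Summed macrophage markers stood at 6747 CPM in Blank against 8970 in Col_nHA, a difference in the same direction as that of the members; its part in their ratios was not tested. Lyz2 made 86.8% of that difference, and without it the list summed to 2578 and 2872 CPM. With Lyz2 left out of the list, the medians were 1.10 for Ctsb and Ctsa, 1.16 for Ctsd, 1.42 for Ctsz, 1.88 for Ctsl and 1.88 for Ctss, so the side of 1 on which Ctsb and Ctsa lay depended on that gene.

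At equal share of lipid-associated macrophage markers, the ratios were smaller still: 0.85 for Ctsb, below 1 in all 9 bins used, 0.90 for Ctsd, 1.36 for Ctsl and 1.23 for Ctss, the last 2 above 1 in 8 of 9 bins. That list summed to 9311 CPM in Blank against 17912 in Col_nHA and Spp1, at 1481 and 8498 CPM, makes 81.6% of that difference. With Spp1 left out of the list all 10 bins were used, and the medians were 1.11 for Ctsb, 1.19 for Ctsd, 1.76 for Ctsl and 1.88 for Ctss. Ctsl and Ctss thus stood above Ctsb and Ctsd in each of these lists, while the side of 1 on which Ctsb and Ctsd lay depended on that gene.

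For Ctsk the ratio differed with the list used for binning. At equal macrophage marker share its median ratio was 1.54, close to the 1.45 over whole sections, but at equal osteoclast marker share it was 0.81, with 2 of 10 bins above 1 (range 0.312 to 1.03). In the bin richest in osteoclast markers Ctsk stood at 3923 CPM in 83 Blank spots (3826 to 4021) and 4044 CPM in 389 Col_nHA spots (3999 to 4090), and in the next at 1392 CPM in 87 Blank spots (1329 to 1457) and 1423 CPM in 385 Col_nHA spots (1393 to 1453). In the poorest bin it stood at 616 CPM in Blank against 192 in Col_nHA, and there all 9 members were lower in Col_nHA, Ctsb with a ratio of 0.471 and Ctsl with one of 0.733. With the tissue-rich spots left out the median was 0.78 and the lowest ratio 0.686 instead of 0.312, and without Acp5 and Mmp9 in the list the median was 0.85. Spots with an equal osteoclast marker share thus held about equal Ctsk at the upper end, where Col_nHA had more spots; the part of osteoclasts in the Ctsk ratio was not tested. In the same bins Ctsl had a median ratio of 2.10 and Ctss one of 1.84, each above 1 in 9 of 10 bins.

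**Figure D5:**
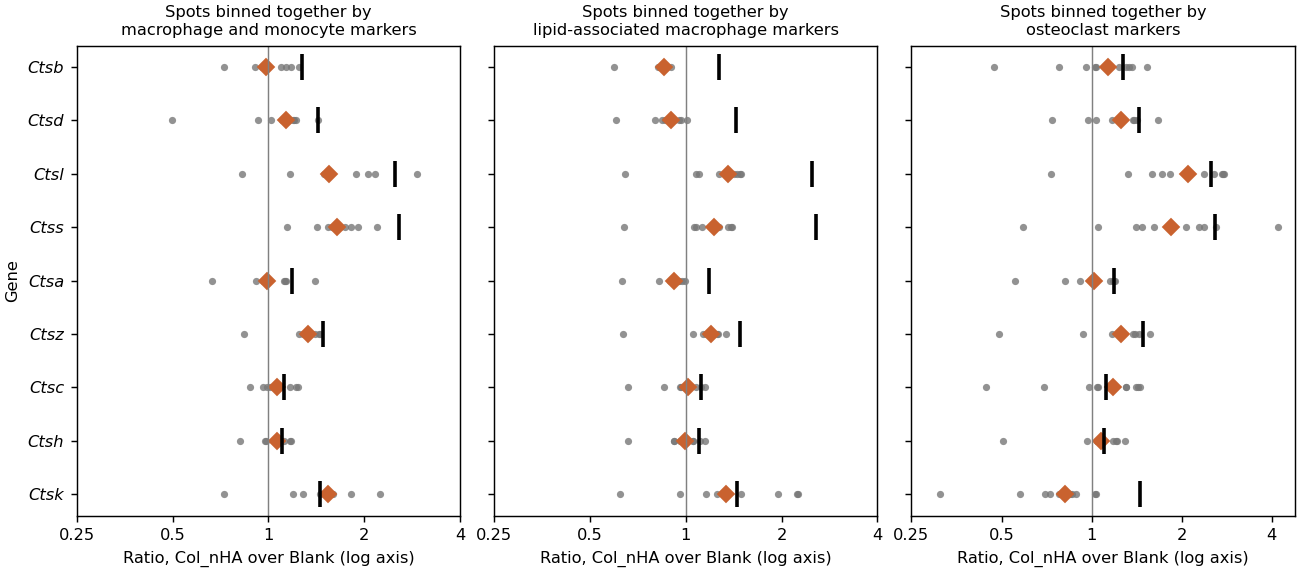
Ratio of Col_nHA over Blank (log axis) of each cathepsin gene within bins of spots of equal marker share: grey points are single bins, the orange diamond their median and the black bar the ratio over whole sections. Ctss and Ctsl lie above 1 in most bins of all 3 lists, Ctsb lies near or below 1 for the first pair of lists, and the Ctsk median is 0.81 for the osteoclast list and above 1 for the others.

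Summed osteoclast markers differed between the sections more than Ctsk did. Of the 12 markers with at least 10 CPM, 7 stood at least 2-fold higher in Col_nHA and none at least 2-fold lower. Of all 9855 genes at that level, 1.83% stood at least 2-fold higher. Acp5 had a ratio of 2.31 and Mmp9 one of 2.60, against 1.45 for Ctsk. Not every marker passed Ctsk: Clcn7 stood at 1.40 and Nfatc1 at 1.16, and Car2 was lower in Col_nHA, at 0.531. The list summed to 985 CPM in Blank against 2154 in Col_nHA. Of 14 macrophage and monocyte markers none passed 2-fold, with a median log2 ratio of 0.07; Lyz2 had a ratio of 1.46 and C1qb one of 1.09.

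The other genes of the pathway, in lists chosen with earlier results of these data known, stood at different levels; all their values are ratios of Col_nHA over Blank over whole sections, without a test. The 3 other cathepsin-family genes with at least 10 CPM were lower in Col_nHA: Ctsf, cathepsin F, at 0.562, Ctso at 0.851 and Tinagl1, a family member without protease activity, at 0.858. The members' higher levels were thus not shared by these low-abundance relatives, the most abundant of which, Ctsf, stood at 66.8 CPM in Blank.

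Among the inhibitors of cysteine cathepsins, 3 of 7 measured cystatins and stefins stood at least 2-fold higher and 1 at least 2-fold lower. The higher ones were the stefin A genes Stfa1 (10.5), Stfa3 (6.46) and BC100530 (5.25), close copies between which reads can be split. Stfa1 is a leading gene of region 15 (Krt6b, Sprr2a3, Stfa1), with 2.96% of its UMIs in skin epithelium genes. That region held 171 Col_nHA spots and 0 Blank spots, and its part in these ratios was not tested. The lower one, singled out after its values were seen, was Cst6 (0.455), a cystatin of epithelium. Cystatin C, Cst3, the abundant secreted inhibitor, stood at 0.919, and stefin B, Cstb, the inhibitor of the cytosol, at 1.47. None of 5 serpins and other inhibitors passed 2-fold; Serpinb6a stood at 0.902, Serpina3n at 0.532 and Cd74, the invariant chain, at 0.657.

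Most genes of the acid supply of the lysosome stood higher: 16 of 17 proton pump subunits stood above 1, with a median log2 ratio of 0.38, though 1 alone, Atp6v0d2, was at least 2-fold higher (3.04). That subunit and Tcirg1 (1.74) are those used by osteoclasts, and both are also in the osteoclast list. Ubiquitous subunits stood at 1.31 (Atp6v0b), 1.30 (Atp6v0e) and 1.33 (Atp6v1g1). The rest of the lysosome was near the background: other hydrolases had a median log2 ratio of 0.06 with 1 of 38 at least 2-fold higher (Acp5), sorting and activation partners 0.09 with 0 of 16, and membrane proteins 0.03 with 0 of 17. Among them Lamp1, the main lysosomal membrane protein, stood at 0.979, the prosaposin gene Psap at 1.17 and progranulin, Grn, at 1.13, while Lyz2 at 1.46, Npc2, the cholesterol carrier, at 1.43 and Cd68, the macrophage lysosomal membrane protein, at 1.78 were higher. The MiT/TFE factors and their partners had a median of 0.06, with 0 of 10 past 2-fold, Rragd at 1.35 and Fnip2 at 1.31. The members' median of 0.52 stood above the median of each of these lysosomal lists.

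Genes listed as downstream of single cathepsins, where they reached 10 CPM, mostly stood lower in Col_nHA. Cathepsin S trims the invariant chain in class II antigen presentation, and of 7 genes of that route none was at least 2-fold higher and 1 at least 2-fold lower, H2-Ab1 (0.483), with H2-Aa at 0.502 and Cd74 at 0.657, while Ctss stood at 2.57. Cathepsin C activates some granule serine proteases, and the list taken for it had 3 measured genes, all mast cell proteases. All were at least 2-fold lower: Mcpt4 at 0.0696, Cma1 at 0.135 and Tpsb2 at 0.145, at 55.1 CPM or less in Blank. Whether cathepsin C acts on each of the 3 was not tested. These genes are also mast cell markers. Of 4 measured mast cell markers, all 4 were at least 2-fold lower, against 3.4% of all 9855 genes. With no CPM minimum the median log2 ratio of the granule protease list was 0.30 instead of -2.89. Low genes such as Gzmb (3.65) and Mcpt8 (5.24), chosen after their values were seen, then entered it. Of 9 matrix genes whose proteins cathepsins K, L and S can cut, 8 stood below 1, with Col1a1 at 0.670, Col1a2 at 0.724, Sparc at 0.726, Dcn at 0.559 and Eln, elastin, at 0.329. Among 14 metalloproteinase and inhibitor genes, which encode the other enzymes of matrix breakdown, 2 were at least 2-fold higher, Mmp9 at 2.60 and the inhibitor gene Timp1 at 2.20, while Mmp2 stood at 0.734 and Timp2 at 0.846. These RNA levels say nothing of protein or enzyme activity.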

How the data were processed

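Each section came as a deposited matrix of raw UMI counts, whole numbers that the authors had not normalized. They used Space Ranger and mm10 per the submitters' processing notes, with no version given in the sources used here. Per the file headers the matrices were written by Cell Ranger 4. The labels call the samples fresh-frozen spatial sections, whereas their extraction text describes a droplet single-cell kit. No image or spot position was used.

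Counts were summed over spots (barcodes with at least 3667 UMIs in Blank and 4690 in Col_nHA) and scaled to CPM. The depth was 30705849 and 40202268 UMIs. Intervals are exact: Poisson for levels, conditional binomial for ratios, Clopper-Pearson for shares, at 95.0%. The number of sections, 1 per group, allows no test. For shares and Spearman rho each spot was thinned to 2000 UMIs. Regions are Leiden clusters (scanpy 1.11.5; 2000 variable genes without the cathepsins, 30 components, 15 neighbours, resolution 0.6, no batch integration). Other work used Python 3.11.15, pandas 2.3.3 and scipy 1.17.1; edgeR 4.0.16 gave the trimmed mean (TMM) factors. The scripts were tested on simulated data. Promoters came from RefSeq (GRCm38.p6).

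All 9 members are named. Of each pathway list the 3 most abundant genes and the 2 with the largest ratio at or above 10 CPM could be named, of each marker list the 2 most abundant, and as genes most like a member the 5 with the highest mean rho. The members and all lists were chosen with earlier results of these data known. A region is named by up to 3 of the genes with the highest ratio of its mean CPM to that of all other spots. Bglap and Ibsp, given as a check for bone, and the osteoclast markers Clcn7, Nfatc1 and Car2 fall outside these rules. They were chosen after their values were seen. Alternatives were other UMI minimums, scalings and CPM minimums, other thinning and clustering, and leaving out spots rich in other tissues. Bins of equal marker share and their alternatives were added after seeing the data.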

Additional observations from a re-analysis of the deposited data

How the results depend on the processing

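All 9 members stood above a ratio of 1 and the same count, 2, was at least 2-fold higher (0 lower) under each of the UMI minimums and scalings tried. The lowest member ratio lay between 1.09 and 1.13 and the highest between 2.51 and 2.65. The summed ratio of 1.52 was 1.51 at 8000 UMIs per spot, 1.53 over every barcode, 1.56 with TMM factors, 1.53 with a total without mitochondrial, ribosomal protein and haemoglobin genes, 1.48 when CPM was averaged over spots and 1.54 without spots rich in other tissues. The median log2 ratio of the members, 0.52, was 0.56 with TMM factors and 0.46 when CPM was averaged over spots.

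The background counts of 180 genes at least 2-fold higher and 335 lower were 72 and 96 at a minimum of 50 CPM, 248 and 520 at 5 CPM and 1918 and 3287 with none, and 154 and 216 without spots rich in other tissues. With no CPM minimum the median of the granule protease list turned from -2.89 to 0.30, since more low genes entered. Without spots rich in other tissues, 58 of all 207 values of rho in Col_nHA changed sign, 17 of them at least 0.1 in size before. Among the member pairs and the macrophage, lipid-associated macrophage, osteoclast, osteoblast and fibroblast lists, those of at least 0.1 were Ctsb with Ctsk (-0.0288), with osteoclast markers (-0.0059) and with fibroblast markers (-0.17), and Ctsd with Ctsk (-0.0277) and with osteoclast markers (-0.0109); the cause was not tested. Of 36 comparisons of a highest region level with that at another clustering resolution, 29 differed by more than counting error. Without thinning, rho rose: the medians over the 36 pairs were 0.20 in Blank and 0.41 in Col_nHA. No paired analysis was possible because each group holds 1 section. Counting intervals are narrow, the spread between animals is unknown, and the sections differ in tissue make-up.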
